A study of Homo sapiens with 2 samples.

Results

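The p53 stress network genes MDM2, PPM1D, SESN1, SESN2, SESN3, ZMAT3, CCNG1, DDB2 and TP53INP1 were followed in cells treated with Me6TREN for 24 hours and in control cells given phosphate-buffered saline for 24 hours. The members were chosen by name: all probes whose platform gene symbol is one of these 9 symbols were taken, which gave 14 probes for 9 of 20046 named genes. The members and the gene lists below were picked with earlier results of these data known. Their shares past 2-fold are therefore not independent of these data. Cells of both groups were labelled as the Jurkat line, a human T cell leukaemia line, and were cultured in RPMI with added fetal bovine serum. Me6TREN is a branched tertiary amine that binds metal ions, and its dose is not given in the sources used here. Each group had 1 sample on 1 Illumina HT12 array, so the values carry neither a spread between samples nor a test, and a difference is one between 2 arrays with nothing to check it against.

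p53 is a transcription factor that is held at a low level by the ubiquitin ligase MDM2 and is released from it after DNA damage and other stress. Its target genes include its own inhibitors MDM2 and PPM1D, the sestrins, which restrain the growth kinase mTORC1, and genes of DNA repair, cell cycle arrest and apoptosis. Jurkat cells are known to lack functional p53, and several of the 9 genes also answer to other factors: SESN2 to ATF4, SESN1 and SESN3 to FOXO factors. The p53 status of the cells on these arrays was not tested. The p53 gene itself is not analysed here.

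A signal is the mean brightness of a probe's beads with the background still in it, and probes with a detection p-value below 0.01 count as detected. This corresponded to a signal of at least 350.5 on the Me6TREN array and 333.4 on the control array. The arrays detected 13656 and 15363 of 47322 probes, on Me6TREN and control, with a median of 22 beads behind a probe on both. The negative controls, reconstructed from the steps of the detection p-values, had a mean signal of 255.7 with an SD of 38.2 on the Me6TREN array and a mean of 239.6 with an SD of 36.3 on the control array. Of the T cell markers, 1 of 10 was detected on both arrays (CD247, 726.4 with Me6TREN and 1218.7 in the control). The control array alone detected 3, among them CD3D (587.4), the Me6TREN array alone detected 2, and neither detected CD3E, CD5, CD7 and LCK. The summed signal of the 10 was 3386 with Me6TREN and 4158 in the control. Both arrays detected 4 of 5 B cell markers that have a probe, with summed signals of 78576 and 80639 in Me6TREN and control, and neither detected PAX5. CD3E, CD5, CD7 and LCK, defining markers of the labelled T cell line, were therefore at background on both arrays. The B cell markers CD79A (33455 with Me6TREN, 32313 in the control) and CD79B (42800 and 45069) were bright on both. These markers do not bear out the T cell label. Whether the identity of the cells bears on the values below was not tested.

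Sequences at the starts of 3 members are shown because a match to the p53 consensus was found near a start of each. Their log2 ratios on the arrays were 1.64 (MDM2), 0.33 (SESN1) and -0.90 (DDB2). Whether the matches bear on these ratios was not tested. The windows come from RefSeq on GRCh38.p14 and run from 250 bases before to 50 bases after each annotated start; 8 of the 9 members matched, with 16 windows. The p53 consensus, 2 half-sites of 10 bases each that read the same on both strands, was searched with at most 3 mismatches in 20 bases, 0 or 1 base between the half-sites and the core C and G of each half-site kept, limits set after the members' windows had been seen. It was found in 4 windows of 3 members, and in 837 of all 35116 windows (2.38%). Capitals mark the half-sites of the best match under this rule. A p53 site without the core C or G of a half-site would stay in small letters. The MDM2 stretch (chr12:68808767-68809016, plus strand) is the 250 bases before an internal start of the gene, and the marked site begins 94 bases before that start, with 2 mismatches. Whether the stretch holds further p53 sites outside this rule was not tested. The SESN1 stretch (chr6:109009013-109009042, minus strand) lies before the most downstream of 3 annotated starts, with 3 mismatches and a first base 49 bases before the start. The DDB2 stretch (chr11:47214975-47215004, plus strand) lies just after the downstream start, with 0 mismatches and 1 base between the half-sites.
MDM2: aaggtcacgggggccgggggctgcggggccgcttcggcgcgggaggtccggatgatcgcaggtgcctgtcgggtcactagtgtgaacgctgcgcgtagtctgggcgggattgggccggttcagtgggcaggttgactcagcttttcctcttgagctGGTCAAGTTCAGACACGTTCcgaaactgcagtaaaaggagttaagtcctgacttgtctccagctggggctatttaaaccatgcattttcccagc
SESN1: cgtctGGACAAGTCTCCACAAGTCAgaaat
DDB2: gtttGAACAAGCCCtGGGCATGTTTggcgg
A match describes the letters of these windows and is not a binding measurement. The windows of PPM1D, SESN2, SESN3, ZMAT3 and CCNG1 held no match under this rule, which says only that these letters are not in those windows.

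Of the 9 members, MDM2 and SESN3 were at least 2-fold higher with Me6TREN and none was 2-fold lower. In these bulk samples, fewer cells that express a gene and less of its RNA per cell cannot be told apart. Across all 9410 genes detected on at least 1 array, 6.74% were higher by 2-fold or more and 9.94% lower. The median log2 ratio of the members was 0.30, against -0.02 over all measured genes. That sign was set by the scaling, since the members' median was -0.18 in the authors' series matrix values, against -0.43 over all measured genes, and -0.32 without scaling between the arrays, against -0.55. Ratios are Me6TREN over control after background correction and quantile normalization, and each gene is represented by its brightest detected probe. Of the 14 member probes, 10 were detected on both arrays, 1 on the control array alone and 3 on neither. Within like levels of signal, the log2 ratios of genes detected on both arrays scattered with a robust SD of 0.90 around the brightness of MDM2 and SESN3, of 0.82 around that of PPM1D, SESN1 and DDB2, and of 0.38 around that of ZMAT3 and CCNG1. These spreads hold differences between genes as well as noise.

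**Figure D1:**
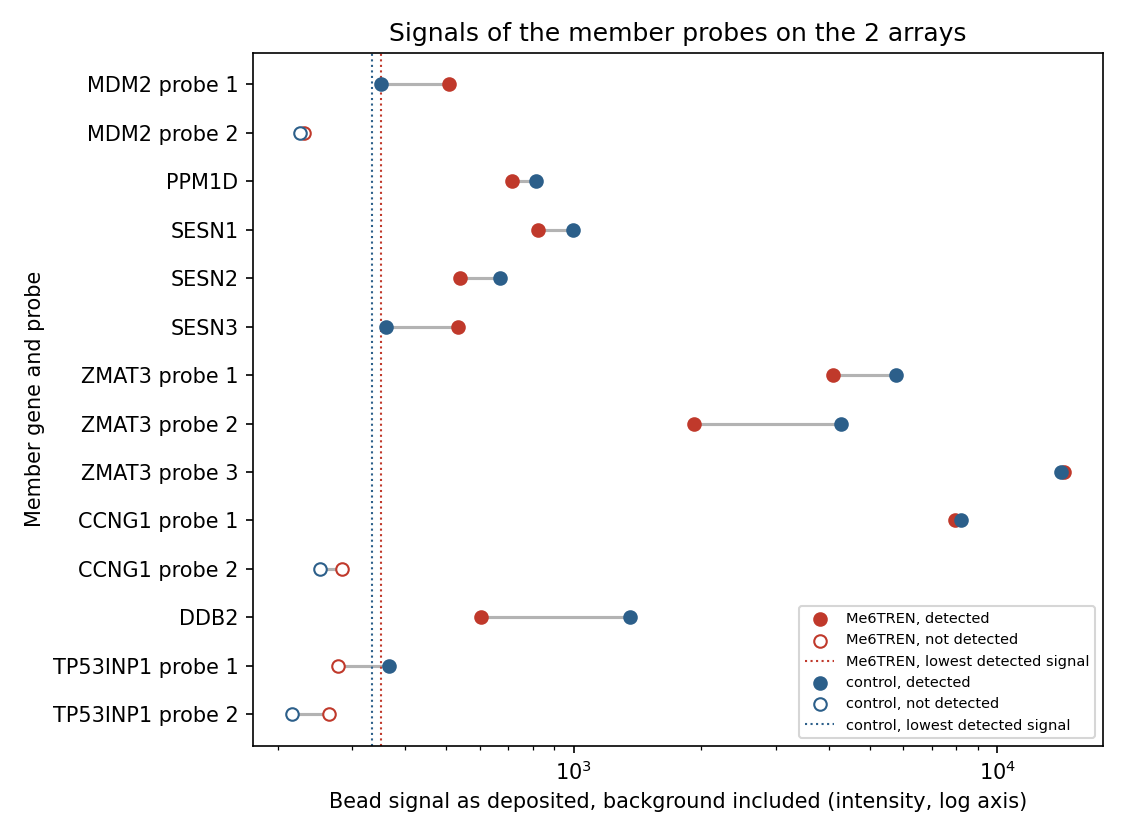
Signals of the 14 member probes as deposited (horizontal log axis, intensity with background) on the Me6TREN array (red) and the control array (blue), 1 array each, with filled points for detected probes, open points for undetected ones and dotted lines at each array's lowest detected signal. The control points of MDM2 probe 1 (351.5) and SESN3 (360.2) lie just above the control limit of 333.4, while their Me6TREN points lie at 508.4 and 531.4.

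MDM2 encodes the ligase that marks p53 for degradation. Its detected probe had a signal of 508.4 on the Me6TREN array and 351.5 on the control array, with no negative control of either array as bright. The Me6TREN array was the higher, by 156.8, and the control signal was only 1.05 times the lowest detected signal there. Above the estimated background the signals were 251.4 with Me6TREN and 111.1 in the control, a ratio of 2.26. By rank among all probes, MDM2 stood at percentile 79.3 with Me6TREN and 69.4 in the control, and quantile normalization, which works on ranks, gave a 3.13-fold higher level (log2 ratio 1.64). In order of log2 ratio MDM2 was 208 from the top of 9410 measured genes. The size depends on the background step, since the deposited signals differ by a ratio of 1.45 and the log2 ratio was 0.73 without background correction. A further MDM2 probe of the same annotated transcript was not detected, at 230.1 with Me6TREN and 226.0 in the control, so the MDM2 ratio rests on 1 probe.

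PPM1D encodes the phosphatase WIP1, which switches off p53 and the damage kinases after stress. Its signal was 714.3 on the Me6TREN array and 815.7 on the control array. The deposited signal was thus lower with Me6TREN, while its percentile was higher, 83.4 with Me6TREN against 81.4 in the control. The normalized log2 ratio was 0.42 (1.34-fold), under the 2-fold threshold, and without any scaling between the arrays it was -0.32. Over all measured genes the unscaled median was -0.55, so PPM1D lay above the median gene with and without scaling.

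The sestrins bind the GATOR2 complex and hold back mTORC1, and they take part in the defence against oxidants. SESN3 had a signal of 531.4 on the Me6TREN array and 360.2 on the control array. SESN1 had 823.8 with Me6TREN and 998.0 in the control, and SESN2 had 538.5 and 669.5 on the same arrays. SESN3 was therefore the 1 sestrin with the higher deposited signal on the Me6TREN array, and the other two were lower there.

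After normalization SESN3 was 3.24-fold higher with Me6TREN (log2 ratio 1.69), at 193 from the top of 9410 genes. Its percentile among all probes was 79.9 with Me6TREN and 70.2 in the control, and its values above background were 274.5 and 119.7. Like MDM2, SESN3 was near the limit of detection in the control, at 1.08 times the lowest detected signal, and its log2 ratio was 0.78 without background correction. The 3 sestrins did not share a fold of 2: SESN1 had a normalized log2 ratio of 0.33 (1.25-fold) and SESN2 of 0.15 (1.11-fold). Without scaling between arrays these 2 ratios were -0.41 and -0.58, against -0.55 for the median gene. SESN1 and SESN2 thus stayed under 2-fold in either direction, with a sign set by the scaling, while SESN3 was above 0 under every alternative tried (log2 ratios of 0.78 to 1.83). The alternatives of detection rule and probe choice could not move SESN3, whose only probe was detected on both arrays.

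**Figure D2:**
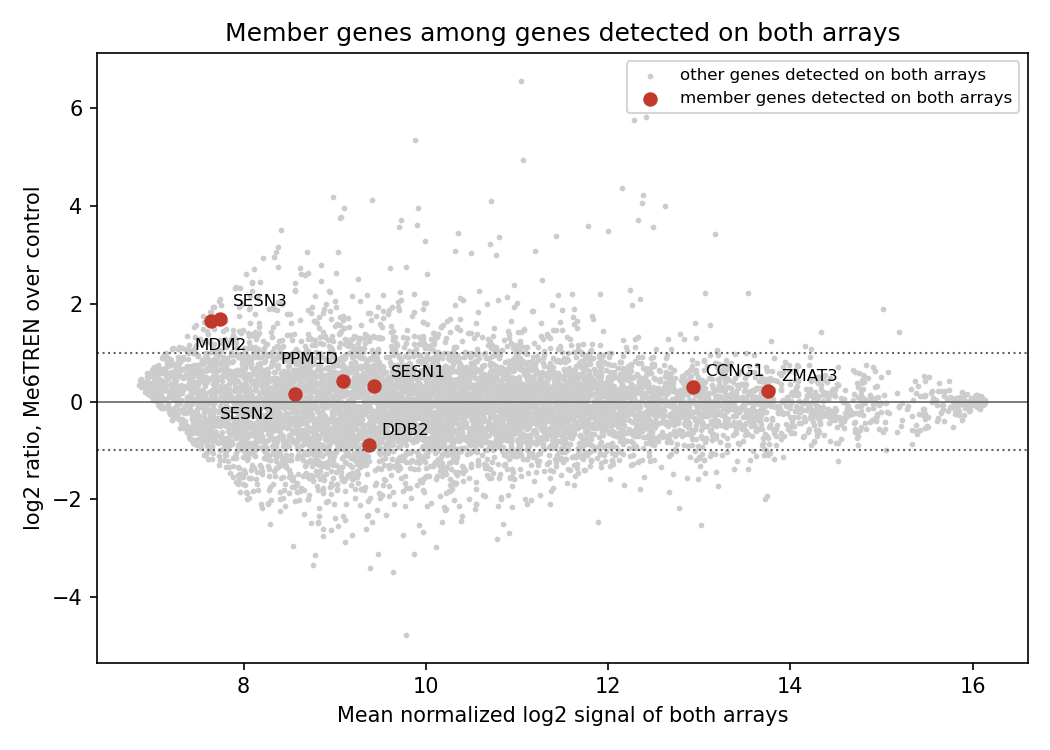
Log2 ratio (Me6TREN over control) against the mean normalized log2 signal of both arrays, for genes detected on both arrays (grey) and the 8 members among them (red), with dotted lines at 2-fold. MDM2 (1.64) and SESN3 (1.69) lie above the 2-fold line at the dim end, where grey points scatter widely, and DDB2 (-0.90) lies just inside the lower line.

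ZMAT3, a zinc finger protein that binds RNA and regulates splicing, had 3 detected probes, and they disagreed. The brightest had signals of 14352 on the Me6TREN array and 14134 on the control array. The second had 4100 with Me6TREN and 5776 in the control, and the third, annotated to a cDNA clone and not to the RefSeq transcript, had 1924 and 4276. In that order the probes had normalized log2 ratios of 0.22, -0.08 and -0.68, so their signs differed. This range of 0.90 is not unusual on these arrays: among 299 genes with 3 probes detected on both arrays the median range was 0.68, and 37.8% had a range as large or larger. Which transcripts each probe detects was not tested.

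CCNG1 encodes cyclin G1, a p53 target that recruits a phosphatase to MDM2. With 7946 on the Me6TREN array and 8189 on the control array, its signal was far above background on both. It differed little, with a normalized log2 ratio of 0.30 (1.23-fold) and an unscaled one of -0.05. A dimmer probe was not detected on either array, at 283.7 with Me6TREN and 251.5 in the control.

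DDB2, which recognises ultraviolet lesions in chromatin and starts their repair, was the member with the lowest ratio among those detected on both arrays. Its signal was 604.9 on the Me6TREN array and 1356.0 on the control array. The signal was 1.73 times the lowest detected signal on the Me6TREN array and 4.07 times that on the control array, so both lay above the limit of detection. Above background the values were 348.0 with Me6TREN and 1115.4 in the control, and the percentile was 81.6 against 86.0. The normalized level was 1.87-fold lower (log2 ratio -0.90), at 1113 from the bottom of 9410 genes. DDB2 was below 0 under every alternative tried (log2 ratios of -1.64 to -0.65) and past 2-fold with the authors' series matrix values (-1.53) and without scaling (-1.64). Those of detection rule and probe choice could not move it, since its only probe was detected on both arrays.

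TP53INP1 encodes a stress protein that promotes autophagy and helps p53 activate apoptosis genes. One of its probes was detected on the control array alone, with 277.9 on the Me6TREN array, where its detection p was 0.286, and 366.6 on the control array. The control signal was 1.10 times the limit there, and its normalized log2 signal of 6.96 lay under the lowest detected log2 signal of the Me6TREN array, 7.02, so no fold is given. The other probe was not detected on either array, at 264.4 with Me6TREN and 215.9 in the control. TP53INP1 was therefore at or near background on both arrays, and its direction is not settled by these probes.

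Scaling set the direction of the small differences of PPM1D, SESN1, SESN2 and CCNG1. ZMAT3 was above 0 under every scaling (0.75 after median centring, 0.17 in the series matrix and 0.02 without scaling) and below 0 with the mean of its probes (-0.18). Higher genes made up 40.4% of those past 2-fold after quantile normalization, 55.3% after median centring, 10.8% in the series matrix and 7.47% without scaling. Over all measured genes the median log2 ratio lay at -0.43 in the series matrix and -0.55 without scaling. Against those medians, MDM2 (1.32 and 1.07) and SESN3 (1.34 and 1.10) were above, DDB2 (-1.53 and -1.64) was below, and SESN2 (-0.46 and -0.58) lay close to them. PPM1D (-0.18 and -0.32), SESN1 (-0.27 and -0.41) and CCNG1 (0.10 and -0.05) were above the median of all genes.

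**Figure D3:**
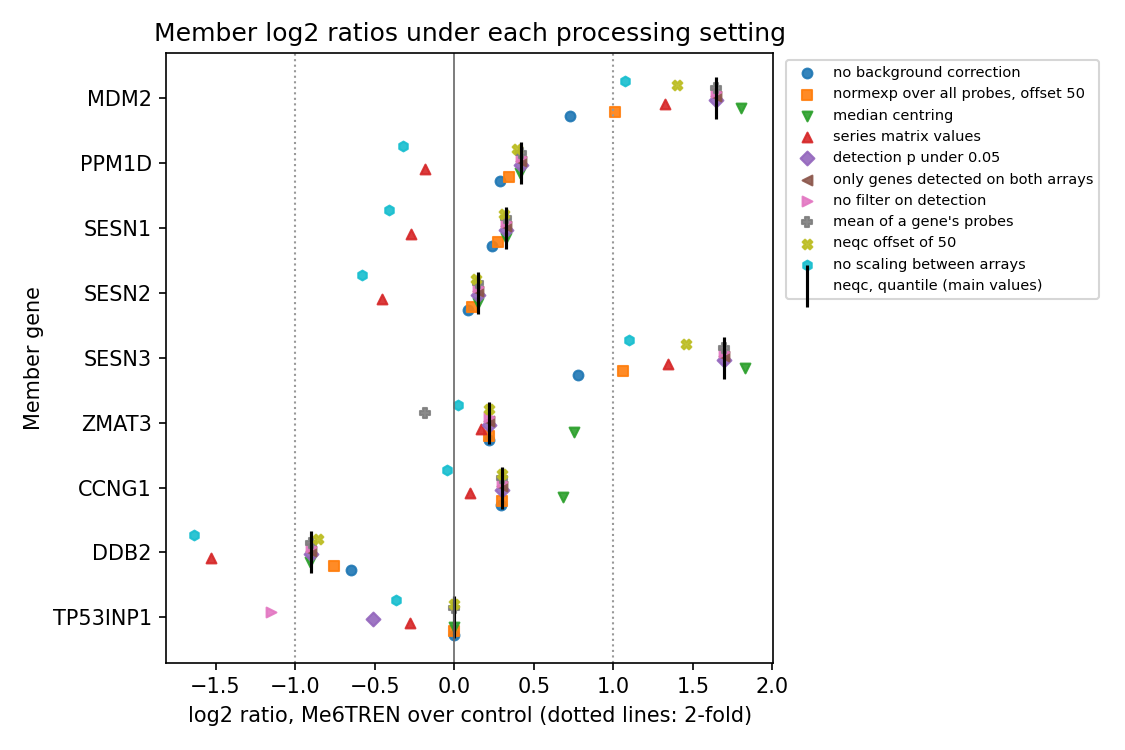
Log2 ratios of the 9 members (Me6TREN over control, horizontal axis) with the main processing (black bars) and 10 alternatives (coloured symbols), with dotted lines at 2-fold. MDM2 and SESN3 stay above 0 and DDB2 below 0 in all of them, while PPM1D, SESN1, SESN2, ZMAT3 and CCNG1 cross 0. For MDM2, SESN3 and DDB2 the alternatives of detection rule and probe choice repeat the main value. TP53INP1 has bounds, drawn at 0 where there is none.

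Of 17 measured p53 regulators, which act on p53, none was at least 2-fold higher and 1 was 2-fold lower (5.88%), which is near the 6.74% and 9.94% of all measured genes and so is no result about the list. Their median log2 ratio was 0.20 (-0.28 in the series matrix and -0.41 without scaling). The lower gene was TP53RK, a kinase that phosphorylates p53, with 501.7 on the Me6TREN array and 1573.1 on the control array (3.18-fold lower). MDM4, the relative of MDM2 that inhibits p53 without degrading it, had signals of 398.5 with Me6TREN and 360.8 in the control. These lay near the lowest detected signals of those arrays, 350.5 and 333.4. The log2 ratio of MDM4 was 0.74, under 2-fold. MDM2 was past 2-fold with the main processing but not without background correction (0.73). Whether MDM4 and MDM2 differ was not tested. Other regulators with the largest ratios were the ubiquitin ligase HUWE1 (0.85), the acetyltransferase EP300 (-0.73), the damage protein TP53BP1 (0.68) and CDKN2A, whose ARF product blocks MDM2 (0.55, but -0.05 without scaling). None of these 4 reached 2-fold.

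Of 44 genes on a list of other p53 targets, 41 had a probe and 29 were detected on at least 1 array. Of those 29, 7 (24.1%) were higher by 2-fold or more and 6 (20.7%) lower, against 6.74% and 9.94% of all measured genes, with a median log2 ratio of -0.01. The split depended on the scaling. In the series matrix 3 were higher and 9 lower (median -0.57), and without scaling 2 were higher and 10 lower (median -0.71). Of all 9410 measured genes, 283 were higher and 2332 lower in the series matrix (median -0.43). Without scaling 221 of them were higher and 2737 lower (median -0.55). Higher with Me6TREN were SERTAD1 (4.12-fold), the stress cytokine GDF15 (539.2 with Me6TREN, not detected in the control at 267.8, at least 3.99-fold), BLOC1S2 (3.05-fold) and the ceramidase ACER2 (2.33-fold). Lower were the carboxylesterase CES2 (5.03-fold) and the antiviral protein TRIM22 (4.24-fold). A dimmer CES2 probe differed less, with 326.9 on the Me6TREN array, where it was not detected, and 447.5 on the control array (log2 ratio -0.91). The remaining genes past 2-fold are outside the rule for named genes and were chosen after their values were seen. The other 3 higher genes were GADD45A (log2 ratio 1.10), PMAIP1 (1.05) and BBC3 (1.02). The other 4 lower ones were APAF1 (-1.20), BAX (-1.16), TIGAR (-1.05) and PIDD1 (-1.05). In the series matrix GADD45A (0.61), PMAIP1 (0.70), BBC3 (0.45) and ACER2 (0.83) were under 2-fold. Without scaling they were too (0.46, 0.55, 0.29 and 0.62), as was BLOC1S2 (0.91). All lower genes named here stayed past 2-fold in these settings. After median centring BAX (-0.998), TIGAR (-0.92) and PIDD1 (-0.96) did not. PMAIP1 and BBC3 encode the BH3-only proteins NOXA and PUMA, and BAX and APAF1 act after them in the mitochondrial path of apoptosis. The probes of BAX disagreed in sign after normalization, as its other probe detected on both arrays gave 0.49. The deposited signal of that probe was lower with Me6TREN, at 533.6 against 567.5 in the control.

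CDKN1A, which encodes the cell cycle inhibitor p21 and is the best known p53 target, had a log2 ratio of 0.11 by its brightest probe, with 5466.6 on the Me6TREN array and 6638.8 on the control array. Its second probe, annotated to another transcript, had 866.7 on the Me6TREN array and was not detected in the control at 258.2, which is at least 8.31-fold higher. The first ratio turned to -0.15 with the series matrix values and -0.30 without scaling, while the second probe was at background in the control and clearly above the limit of 350.5 with Me6TREN. Which CDKN1A transcripts each probe detects was not tested.

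**Figure D4:**
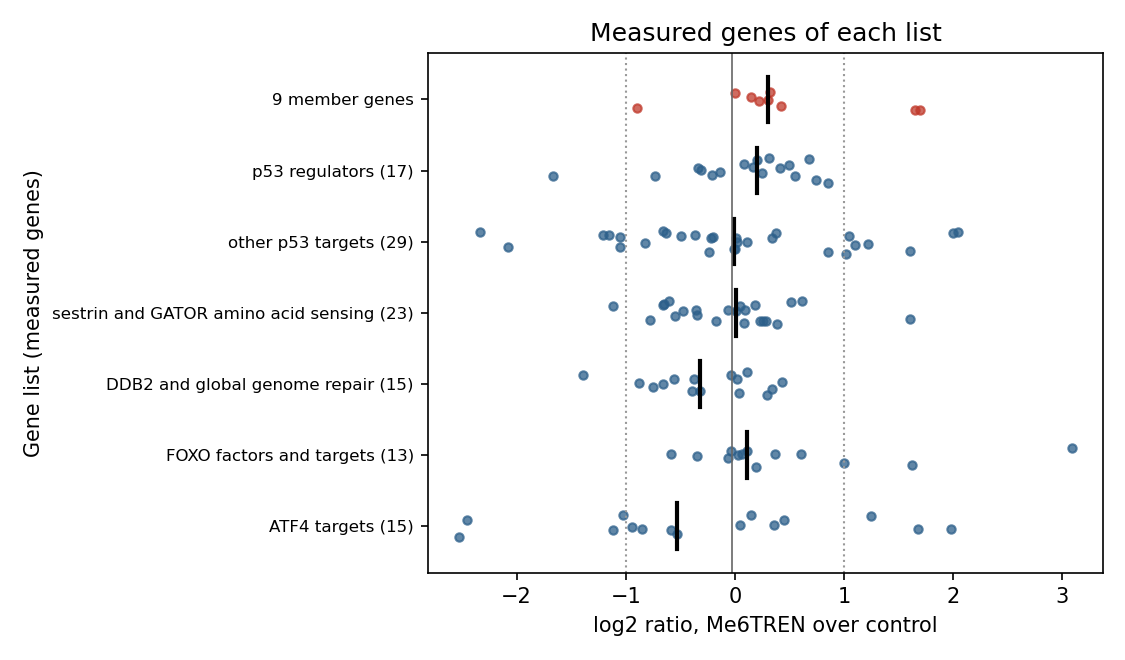
Log2 ratios (Me6TREN over control) of the 9 members (red) and of the measured genes of 6 lists (blue), 1 point a gene with genes detected on 1 array at their bound, black bars for list medians, a grey line at the median of all measured genes (-0.02) and dotted lines at 2-fold. The other p53 targets spread to both sides of 0 around a median of -0.01. With this main processing the repair list (median -0.32) and the ATF4 targets (-0.53) lie lower. The ATF4 median lay above that of all measured genes after median centring, in the series matrix and without scaling.

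Of 23 measured genes of the GATOR, Rag and mTORC1 complexes, through which sestrins act, 1 was higher by 2-fold or more and 1 lower (4.35% each, against 6.74% and 9.94% of all measured genes). The median log2 ratio was 0.01 (-0.39 with the series matrix values and -0.53 without scaling). The number lower was 7 with the series matrix values and 8 without scaling. Of all 9410 measured genes, 2332 and 2737 were lower under those settings, with medians of -0.43 and -0.55. WDR24, a GATOR2 subunit, was 3.05-fold higher, with 618.5 on the Me6TREN array and 422.4 on the control array, and NPRL3, a GATOR1 subunit, was 2.16-fold lower, with 1314.0 and 3851.2 on those arrays. The log2 ratio of WDR24 was 1.14 with the series matrix values and 0.93 without scaling, where 0 genes of the list were 2-fold higher. The Rag GTPases RRAGA (-0.78) and RRAGB (-0.65), the kinase MTOR (-0.65) and the lysosomal anchor LAMTOR4 (0.62) had smaller log2 ratios.

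Genes that share other regulators with the sestrins were set beside them. Of 13 measured FOXO factors and targets, 3 (23.1%) were at least 2-fold higher and none 2-fold lower, against 6.74% and 9.94% of all measured genes. The number higher was 2 with the series matrix values and 1 without scaling, where 283 and 221 of all 9410 measured genes were higher. The median log2 ratio was 0.11 (-0.40 with the series matrix values and -0.54 without scaling). Over all measured genes the medians under those settings were -0.43 and -0.55. The 3 were BCL2L11, which encodes the apoptosis promoter BIM (8.49-fold), the PI3 kinase inhibitor PIK3IP1 (3.07-fold) and CITED2 (2.001-fold, at the threshold). BCL6 (0.60), TRIB1 (-0.59) and CDKN1B (0.37, but -0.18 with the series matrix values and -0.33 without scaling) did not reach it. Of 15 measured ATF4 targets, 3 (20%) were higher by 2-fold or more and 4 (26.7%) lower, against 6.74% and 9.94% of all measured genes. The number lower was 6 with the series matrix values and without scaling, where 2332 and 2737 of all 9410 measured genes were lower. The median log2 ratio of -0.53 turned to 0.26 with median centring, against 0.03 for all measured genes. It was -0.33 with the series matrix values and -0.47 without scaling, against -0.43 and -0.55 for all measured genes. The list median thus lay below that of all genes with the main processing and above it under these other scalings. DDIT3 (3.94-fold), ATF3 (3.21-fold) and DDIT4 (2.37-fold) were higher, and the transporter SLC7A5 (5.76-fold), ATF5 (5.48-fold) and the serine synthesis enzyme PSAT1 (2.17-fold) were lower. SESN2 itself is known as an ATF4 target and, at a log2 ratio of 0.15, lay between the higher and the lower genes of this list.

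The partners of DDB2 in global genome repair had a median log2 ratio of -0.32 (0.04 with median centring), with 1 of 15 measured genes at least 2-fold lower (6.67%) and none 2-fold higher, near the 9.94% and 6.74% of all measured genes. The number lower was 4 with the series matrix values and 5 without scaling, where 2332 and 2737 of all 9410 measured genes were lower. CUL4A, the scaffold of the ubiquitin ligase that holds DDB2, was 2.62-fold lower, with 1232.1 on the Me6TREN array and 4260.6 on the control array. The replication protein A subunits RPA2 (-0.88) and RPA3 (-0.56, but 0.01 with median centring), the helicase ERCC3 (-0.75) and the lesion sensor XPC (-0.66), itself a p53 target, were also below 0 without reaching 2-fold. ERCC5, an endonuclease of the same path, stood at 0.43 (-0.13 in the series matrix and -0.28 without scaling).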

How the data were processed

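Total RNA of 2 samples was labelled and hybridised to Illumina HT12 arrays, 1 array a group, grouped by the treatment label. The authors deposited a table that holds, per the file headers, each probe's mean bead signal (a linear intensity with background in it), detection p-value and number of beads. The deposited series matrix holds processed intensities, each a linear function of the array's signal. Its scale is linear, its columns are not centred on genes and rise with the signal, and their medians were 28.8 with Me6TREN and 30.9 in the control. The authors' software is not given in the sources used here.

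For this work, signals were processed with limma 3.58.1 in R 4.3.3 by neqc (background from the detection p-values, offset 16, quantile normalization, log2). Python 3.11.15 did the rest. Genes were named through the platform annotation (30113 probes with 1 symbol, 8 with several, 17209 with none of their own), matched by Entrez ID to RefSeq for 30074 probes. Each gene takes its brightest probe detected on at least 1 array; a gene detected on 1 array has a bound, taken against its own signal on the other array or the lowest detected one there, whichever is higher. With 1 array a group no test was made, genes are counted at 2-fold, and the number of arrays limits the precision. The alternatives were no background correction, normexp with an offset of 50, median centring over detected probes, series matrix values floored at 99.9, detection at 0.05, genes detected on both arrays, no filter, the mean of a gene's probes, an offset of 50, a 1.5-fold threshold and, added after the data were seen, no scaling between arrays. All members were named, and up to 6 genes of each of 6 lists with the largest ratios, plus MDM4 and CDKN1A. The members and lists were chosen with earlier results of these data known. The steps were tested on simulated data in which only genes well above background were changed. That test does not cover genes as dim as MDM2 and SESN3 were in the control.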

Additional observations from a re-analysis of the deposited data

How the results depend on the processing

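No paired analysis was possible because each group has 1 array. A difference between the arrays cannot be told apart from a difference between cultures, and dim members such as MDM2 and SESN3 are limited by their nearness to background. The log2 ratios of MDM2 (0.73 to 1.81) and SESN3 (0.78 to 1.83) were above 0 and those of DDB2 (-1.64 to -0.65) below 0 under all 10 alternatives. For these genes, detection at 0.05, genes detected on both arrays, no filter and the mean of a gene's probes returned the main values. Each has only 1 detected probe, detected on both arrays, so these settings could not change them. The cause of the changes below was not tested. Without background correction MDM2 was at 0.73 and SESN3 at 0.78, so that 0 members were 2-fold higher; of the other p53 targets 1 was higher and 3 lower, and of the GATOR list 0 and 0. With the series matrix values the log2 ratios were -0.18 for PPM1D, -0.27 for SESN1, -0.46 for SESN2 and -1.53 for DDB2, so that 1 member was lower. Of the p53 regulators 3 were then lower (median -0.28), 3 of the other p53 targets were higher (median -0.57), 7 of the GATOR list were lower (median -0.39), 4 of the repair list were lower, and 1 of the FOXO list was lower (median -0.40). Without scaling the ratios were -0.32 for PPM1D, -0.41 for SESN1, -0.58 for SESN2, -0.048 for CCNG1, -1.64 for DDB2 and -0.36 for the bound of TP53INP1, so that 1 member was lower. Of the p53 regulators 2 were then lower (median -0.41), of the other p53 targets 2 were higher and 10 lower (median -0.71), of the GATOR list 0 were higher and 8 lower (median -0.53), of the repair list 5 were lower (median -0.70), and of the FOXO list 1 was higher and 1 lower (median -0.54). With median centring ZMAT3 was at 0.75 and CCNG1 at 0.68; 3 other p53 targets were lower, 2 of the GATOR list were higher, and the medians were 0.036 for the repair list and 0.26 for the ATF4 list. With the mean of a gene's probes ZMAT3 was at -0.18 and 1 gene of the repair list was higher. The ratio of TP53INP1 was -0.51 with detection at 0.05 and -1.15 with no filter on detection, where 1 member was lower. At 1.5-fold, 1 member was lower, 3 p53 regulators were higher and 2 lower, 2 genes of the GATOR list were higher and 5 lower, 4 of the repair list were lower and 1 of the FOXO list was lower. All genes past 2-fold numbered 634 higher and 935 lower, against 283 and 419 without background correction, 950 and 769 after median centring, 391 and 612 with normexp, 283 and 2332 with the series matrix values, and 221 and 2737 without scaling.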

Other observations

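Of the 41 other p53 targets with a probe, 12 were not detected on either array, against 29 that were detected on at least 1. Among all 20046 named genes, 10636 were not detected on either array, which is a larger share. The 12, named after their detection was seen, include the kinases PLK2 and PLK3, the AKT inhibitor PHLDA3, the junction protein PERP and the autophagy gene DRAM1. TP73, a relative of p53 that can bind the same sites, was not detected either. For these genes no direction can be given, because a signal at background on both arrays sets no ratio.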
